A study of Homo sapiens with 4 samples.

Results

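Amino acid transporters are membrane proteins of the solute carrier (SLC) families that move amino acids across the plasma membrane and the lysosomal membrane. The 10 genes described here were chosen by name (SLC7A5, SLC3A2, SLC1A5, SLC1A4, SLC7A1, SLC38A1, SLC38A2, SLC43A1, SLC6A9 and SLC36A1), out of 19732 gene symbols listed, and the FPKM of all transcripts of a symbol were summed. They were proposed with the differences between the A549 libraries already known, so those differences are given as a description with no test. All 10 were above 1 FPKM in at least 1 of the A549 libraries, as were 12230 genes in all.

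The series holds 4 samples of human lung cancer cell lines, a control and a culture with knockdown of RBM4, a protein that binds RNA and controls splicing and translation, for each of A549 and H1299. A549 is a lung adenocarcinoma line. The analysed groups were the A549 control and the A549 RBM4 knockdown, whose sample title carries the suffix "sh", with 1 library each and therefore no replicate error. The labels do not give the hairpin sequence, the control construct, the time after knockdown, or whether the cells were a pool or a clone. The 2 H1299 samples were not analysed here, because the value columns of their table could not be tied to them by name. That table lists the same 10 symbols with the same number of transcripts, 56.

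Values are FPKM, in which fragments are divided by the length of the transcript and by the size of the library, so levels can be set side by side between genes within a library. The summed FPKM was 671529 for the control and 622366 for the knockdown, mitochondrial genome genes held 18.6% and 21.7% of it, and the number of reads is unknown. The knockdown library was identified by its column name alone. Where a pair of values is given, the control comes first. RBM4 itself measured 59.4 FPKM in control cells and 30.6 FPKM after knockdown. A read-through gene uses the same exons as RBM4, which leaves its level uncertain. The epithelial markers fixed for the check (EPCAM, KRT7, KRT8, KRT18, KRT19 and CDH1) were all above 1 FPKM in both libraries. KRT8 (1646 and 888 FPKM) and KRT18 (1853 and 912 FPKM) were lower in the knockdown library, while KRT7 (1880 and 2446 FPKM) and KRT19 (29.6 and 64.9 FPKM) were higher. The mesenchymal markers were higher in the knockdown library, with VIM at 650 and 769 FPKM, CDH2 at 21.4 and 75.4 FPKM and FN1 at 47.6 and 99.6 FPKM. The 4 lung lineage markers (NKX2-1, NAPSA, SFTPB and SFTPC) were all below 1 FPKM. Of the 12 markers of blood, endothelial and fibroblast cells, CD14 (2.16 and 4.32 FPKM) and COL1A1 (2.61 and 9.47 FPKM) exceeded 1 FPKM, while PTPRC, CD3E, PECAM1, VWF, CDH5, COL1A2 and PDGFRB were listed at 0 in the control library. The markers summed to 2.72 and 5.13 FPKM for blood, 0 and 0.34 FPKM for endothelium, and 2.64 and 9.62 FPKM for fibroblasts, and their part in the results was not tested. CDKN2A, a gene lost in A549, was at 0 in both libraries.

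The transporters fall into types by the way they work. SLC7A5 (LAT1) and SLC3A2 (CD98 heavy chain) are joined by a disulfide bond into an exchanger that brings in leucine and other large neutral amino acids in return for glutamine. SLC1A5 (ASCT2) and SLC1A4 (ASCT1) exchange small neutral amino acids with sodium, and SLC38A1 and SLC38A2 (SNAT1 and SNAT2) concentrate glutamine and alanine in the cell with the sodium gradient. SLC7A1 (CAT1) carries arginine and lysine, SLC6A9 (GLYT1) carries glycine, SLC43A1 (LAT3) lets branched-chain amino acids pass by facilitated diffusion, and SLC36A1 (PAT1) moves small amino acids with protons, largely at the lysosome. In many tumour cells, MYC and the stress factor ATF4 are known to raise the transcription of several of these genes, and leucine entry feeds the kinase complex mTORC1.

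SLC7A5 and SLC3A2 were the members with the largest differences between the libraries, and the promoter bases of both genes are therefore shown first, from RefSeq (GRCh38.p14). Each of the 2 runs is the 250 bases before a RefSeq start site, read 5′ to 3′ on the strand of the gene. Capitals mark the E-box CACGTG, the site bound by MYC with MAX. The SLC7A5 run is chr16:87869508-87869757 on the minus strand, and the SLC3A2 run is chr11:62880646-62880895 on the plus strand. The latter lies before the RefSeq start nearest to that of the gene's most abundant transcript, SLC3A2-201. That transcript starts at 62880872, so the last bases of the run belong to it.
SLC7A5: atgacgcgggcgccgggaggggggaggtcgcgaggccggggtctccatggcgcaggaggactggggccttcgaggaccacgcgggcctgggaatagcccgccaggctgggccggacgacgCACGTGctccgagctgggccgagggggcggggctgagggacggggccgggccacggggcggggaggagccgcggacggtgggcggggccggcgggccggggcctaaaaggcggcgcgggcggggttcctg
SLC3A2: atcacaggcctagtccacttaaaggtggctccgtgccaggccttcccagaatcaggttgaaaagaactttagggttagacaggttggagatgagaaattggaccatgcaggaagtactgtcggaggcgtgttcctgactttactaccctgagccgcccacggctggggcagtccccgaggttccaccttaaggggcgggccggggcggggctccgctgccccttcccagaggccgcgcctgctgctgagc
The SLC7A5 run held 1 E-box, whose first base lay 130 bases before the start. The SLC3A2 run held none.

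The same search was made in the 18 promoter windows that RefSeq gives for the 10 members, each from 250 bases before to 50 bases after a start. CACGTG, which reads the same on both strands, was found in 4 of the 18 windows, belonging to SLC7A5, SLC1A5, SLC43A1 and SLC36A1, against 7.26% of all 35116 windows in the table. TGATGCAA, the core of many amino acid response elements bound by ATF4, was searched on both strands, does not overlap CACGTG, and was found in 2 of the 18 windows, belonging to SLC1A4 and SLC1A5, against 0.866% of all windows. The E-boxes of the other members and the TGATGCAA match of SLC1A4 are shown with their flanks, so that they can be set beside that of SLC7A5. Capitals mark the match, and TTGCATCA is TGATGCAA on the other strand. The stretches are chr5:151447540-151447620 (SLC36A1, plus strand), chr19:46787318-46787363 (SLC1A5, minus strand, at a start downstream of the main one), chr11:57515789-57515834 (SLC43A1, minus strand) and chr2:64989372-64989418 (SLC1A4, plus strand).
SLC36A1: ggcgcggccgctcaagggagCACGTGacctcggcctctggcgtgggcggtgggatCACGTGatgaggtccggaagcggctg
SLC1A5: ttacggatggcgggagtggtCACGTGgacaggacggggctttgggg
SLC43A1: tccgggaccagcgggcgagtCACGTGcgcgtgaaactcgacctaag
SLC1A4: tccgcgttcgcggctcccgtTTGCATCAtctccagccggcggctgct
SLC36A1 held 2 E-boxes, 43 and 8 bases before its start. In SLC1A4 the match began 7 bases before the start and ended on it. The other TGATGCAA match lay before a further SLC1A5 start, at 46784814. Transcripts that start within 50 bases of it summed to 0.37 FPKM in the control library and were listed at 0 in the knockdown library. SLC1A5-205, which starts at 46784905 inside the same window, had 2.24 and 2.49 FPKM. Transcripts that start near the E-box windows did not all differ the same way. They were lower in the knockdown library for SLC7A5 (460 and 141 FPKM) and SLC1A5 (10.5 and 4.96 FPKM), and slightly higher for SLC36A1 (4.42 and 5.02 FPKM). For SLC43A1, the transcript nearest the RefSeq start, SLC43A1-208, was listed at 0 in both libraries. SLC43A1-201, which starts at 57515786 inside the same window, had 1.06 and 2.06 FPKM. Only these exact motifs were searched, and only within the windows, so other forms or sites elsewhere in the genes would be missed. A match is a description of the bases alone.

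SLC7A5, the transporting light chain, was the most abundant member in both libraries. SLC7A5 (ENSG00000103257, chromosome 16, 87830023 to 87869488, minus strand, hg38) measured 507 FPKM in control cells and 165 FPKM after knockdown. The knockdown library thus held 32.5% of the control level, and the log2 difference of FPKM plus 1 was -1.61. Among all measured genes 0.319% had a lower difference. By level, SLC7A5 ranked 185 of all listed genes in control cells and 430 after knockdown. In such bulk libraries a lower level in every cell and a loss from part of the cells cannot be told apart. The partial copies SLC7A5P1 and SLC7A5P2 lie elsewhere on chromosome 16, and a non-coding gene overlaps SLC7A5 exons on the other strand. How reads were shared among them is not known.

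SLC3A2, the heavy chain that carries its light chains to the cell surface, differed in the same direction. SLC3A2 (ENSG00000168003, chromosome 11, 62856102 to 62888875, plus strand) measured 312 FPKM in control cells and 137 FPKM after knockdown, 43.8% of the control, with a log2 difference of -1.18. Among all measured genes 1.29% had a lower difference. In the control library SLC7A5 stood at 1.62 times the FPKM of SLC3A2, and in the knockdown library at 1.21 times. The light chain was thus lower by more than the heavy chain.

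These 2 were the members lower by 2-fold or more, and 0 were higher by 2-fold, where 2.25% of all 12230 measured genes were lower and 4.96% higher by that fold. Since the members were chosen with this contrast known, nothing is read from that share. The other 8 members all lay within 1.5-fold on the log2 scale of FPKM plus 1, as did 77.4% of all measured genes. SLC43A1 was just inside that limit (0.57) and passed it after rescaling to the same total (0.65), with mitochondrial genes left out (0.69), with medians centred to 0 (0.61) and with a pseudocount of 0.1 (0.90). The median difference of the members was -0.07, against -0.04 for all measured genes. That median had the opposite sign when the libraries were rescaled to the same total (0.02), with mitochondrial genes left out (0.07) or with the highest transcript per symbol (0.01).

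Summed over the 10 members, the control library held 1199 FPKM and the knockdown library 649 FPKM. SLC7A5 and SLC3A2 made up 68.4% of that sum in control cells and 46.5% after knockdown. The other 8 together had 379 and 347 FPKM. The lower sum in the knockdown library therefore lay mostly in the LAT1 and CD98 pair.

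**Figure D1:**
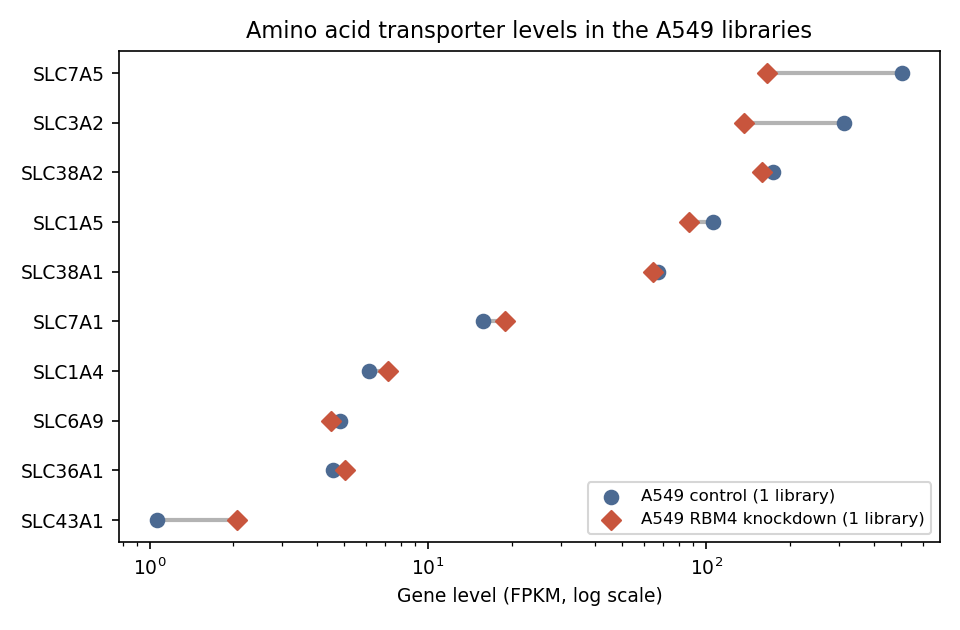
Level of each of the 10 transporter genes in FPKM (log scale) in the A549 control library (circles) and the A549 RBM4 knockdown library (diamonds), with 1 library per group and no error bars. SLC7A5 (507 and 165 FPKM) and SLC3A2 (312 and 137 FPKM) are separated by wide gaps, and most other pairs of points lie close together.

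**Figure D2:**
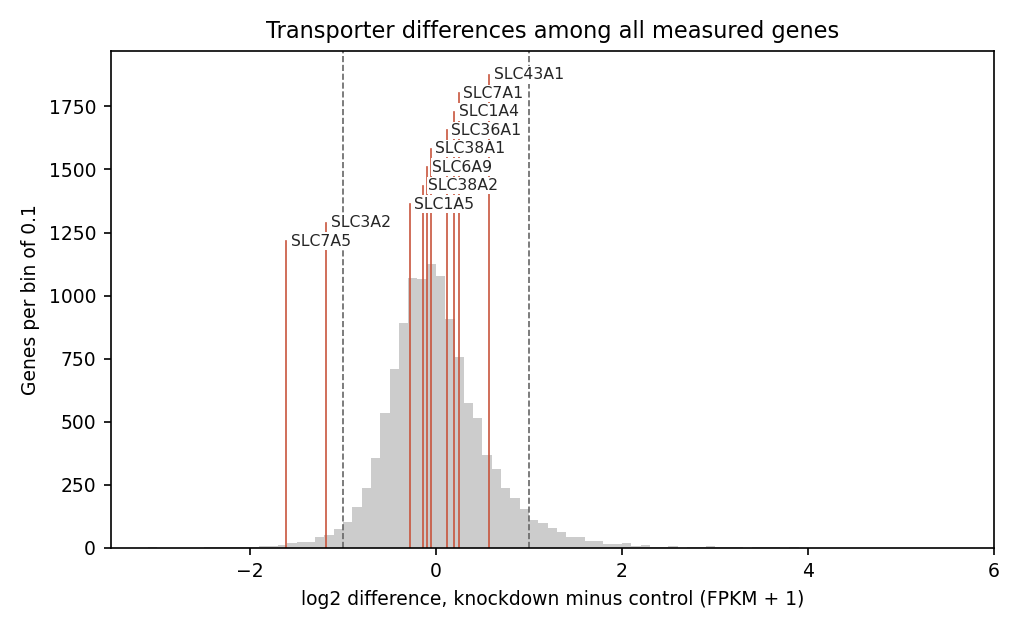
Histogram of the log2 difference (knockdown minus control, FPKM plus 1) of the 12230 measured genes in bins of 0.1, with a line for each of the 10 transporters and dashed lines at 2-fold. SLC7A5 (-1.61) and SLC3A2 (-1.18) lie outside the dashed lines and the other 8 inside them.

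The sodium-dependent glutamine carriers SLC38A2, SLC38A1 and SLC1A5 differed by less than 1.5-fold. SLC38A2 (ENSG00000134294, chromosome 12, 46358189 to 46372867, minus strand) measured 174 FPKM in control cells and 158 FPKM after knockdown, -0.14 as a log2 difference. In the knockdown library it stood between SLC7A5 and SLC3A2. Its paralog and neighbour SLC38A1 (ENSG00000111371, chromosome 12, 46183063 to 46270017, minus strand) had 67.0 and 64.4 FPKM (-0.06). SLC1A5 (ENSG00000105281, chromosome 19, 46774883 to 46788594, minus strand), the main sodium-dependent glutamine exchanger of many tumour cells, had 106 and 86.9 FPKM (-0.28). Among all measured genes 28.2% had a lower difference than SLC1A5. Exons of other genes overlap SLC1A5 on the other strand, and whether strand was kept is not known, which leaves the SLC1A5 level uncertain. With mitochondrial genes left out the sign turned for SLC38A1 (0.11) and SLC38A2 (0.03), and rescaling to the same total turned it for SLC38A1 (0.05), whereas SLC1A5 stayed below 0 (-0.12 and -0.17).

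The remaining members were expressed at lower levels. SLC7A1 (ENSG00000139514, chromosome 13, 29509410 to 29595688, minus strand), the arginine and lysine carrier, measured 15.8 FPKM in control cells and 18.9 FPKM after knockdown (0.24). SLC1A4 (ENSG00000115902, chromosome 2, 64988477 to 65023865, plus strand), the alanine and serine exchanger, had 6.16 and 7.21 FPKM (0.20). SLC36A1 (ENSG00000123643, chromosome 5, 151437046 to 151492381, plus strand) had 4.57 and 5.02 FPKM (0.11). All 3 were slightly higher in the knockdown library. SLC6A9 (ENSG00000196517, chromosome 1, 43991500 to 44031467, minus strand), the glycine carrier, had 4.85 and 4.49 FPKM (-0.09), a difference that was 0.04 with mitochondrial genes left out and 0.12 for the highest transcript. Exons of CCDC24 overlap SLC6A9 on the other strand.

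SLC43A1 was the least abundant member and the one with the highest difference. SLC43A1 (ENSG00000149150, chromosome 11, 57484534 to 57515786, minus strand), which carries leucine without a heavy chain, measured 1.06 FPKM in control cells and 2.06 FPKM after knockdown. That is 195% of the control, but 0.57 on the log2 scale of FPKM plus 1, which understates differences of genes this low, and 0.90 with a pseudocount of 0.1. Its order among the members was the last in both libraries. At this level, with an unknown number of reads, the difference has no measure of its error.

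By level, the order in the control library was SLC7A5, SLC3A2, SLC38A2, SLC1A5, SLC38A1, SLC7A1, SLC1A4, SLC6A9, SLC36A1 and SLC43A1. In the knockdown library SLC38A2 stood above SLC3A2 and SLC36A1 above SLC6A9, and the order was otherwise as in the control. With 1 library per group, the spread that would tell neighbours in this order apart is not known.

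The transcripts of SLC7A5 and SLC3A2 were examined because RBM4 is a splicing regulator. Shares of transcripts in a gene were not used to choose the members. SLC7A5 has 2 listed transcripts. The longer, SLC7A5-201 (ENST00000261622, 4537 bases), measured 460 FPKM in control cells and 141 FPKM after knockdown. The shorter, SLC7A5-203 (ENST00000565644, 3983 bases), which starts further downstream, had 46.8 and 23.8 FPKM. SLC7A5-201 thus held 90.8% of the gene in control cells and 85.6% after knockdown, and both transcripts were lower.

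SLC3A2 has 12 listed transcripts, of which 9 were above 0. The most abundant, SLC3A2-201 (ENST00000338663, start at 62880872), measured 166 FPKM in control cells and 73.2 FPKM after knockdown. It held 53.1% and 53.5% of the gene. The 4 transcripts that start upstream, between 62856102 and 62856168, together had 131 and 54.1 FPKM. The knockdown library thus held 44.1% of the control level for the downstream start and 41.2% for the upstream starts. SLC3A2-211, which starts between these sites, had 12.1 and 5.69 FPKM. The 3 transcripts with later starts were low and summed to 3.18 and 3.94 FPKM. The lower level of SLC3A2 was therefore seen at both main start regions to a similar degree.

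**Figure D3:**
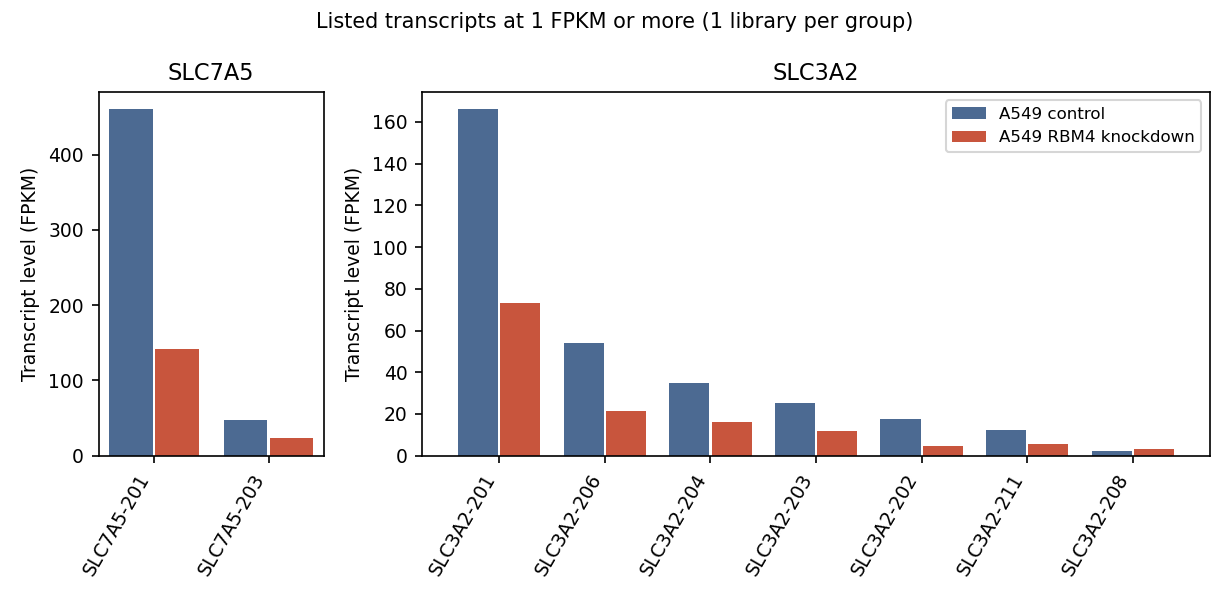
FPKM of the listed transcripts of SLC7A5 (left) and SLC3A2 (right) that reach 1 FPKM in either A549 library, with 1 bar for the control and 1 for the RBM4 knockdown library and no error bars. Both SLC7A5 transcripts and the 6 most abundant SLC3A2 transcripts are lower in the knockdown library, and SLC3A2-208 (2.48 and 3.13 FPKM) is higher.

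All 10 members had the same leading transcript in both libraries. Its share differed most for SLC6A9, where SLC6A9-205 held 63.0% in control cells and 75.8% after knockdown, from a gene level below 5 FPKM. In SLC1A5, the main transcript SLC1A5-203 had 92.7 and 79.4 FPKM. SLC1A5-201, which begins at a later start and is 1750 bases long, had 10.5 and 4.96 FPKM, a share of 9.89% and 5.71%. Its start is the one whose window held the E-box shown above. In SLC38A1, the leading transcript SLC38A1-201 held 71.7% and 70.7%.

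SLC3A2 pairs with several light chains, so the other partners of CD98 were set beside SLC7A5. SLC7A11 (xCT), the cystine and glutamate exchanger, measured 83.5 FPKM in control cells and 76.7 FPKM after knockdown (-0.12). SLC7A6 (y+LAT2) had 16.0 and 19.7 FPKM (0.29), and SLC7A7 (y+LAT1) had 11.4 and 7.18 FPKM (-0.60). SLC7A8 and SLC7A10 were below 1 FPKM in both libraries. SLC7A6 overlaps SLC7A6OS on the other strand and is uncertain. Exons of other genes also overlap SLC7A11 on the other strand, and likewise BSG and ITGB1 below, so the same limit holds for them.

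Of the 4 light chains above 1 FPKM, SLC7A5 was the one lower by 2-fold. The 6 light chains summed to 618 FPKM in control cells and 269 FPKM after knockdown, and without SLC7A5 to 111 and 104 FPKM. SLC7A5 made up 82.0% of the light chain sum in control cells and 61.2% after knockdown, and SLC7A11 13.5% and 28.5%. The ratio of summed light chains to SLC3A2 was 1.98 in control cells and 1.97 after knockdown. These are ratios of mRNA levels per length within a library and say nothing of protein.

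Proteins that bind the complex differed from each other. LAPTM4B, a lysosomal membrane protein that recruits LAT1 and CD98 to lysosomes, measured 95.0 FPKM in control cells and 20.7 FPKM after knockdown (-2.15). ITGB1, the integrin subunit to which CD98 binds, had 762 and 391 FPKM (-0.96). BSG (basigin), which associates with CD98 at the surface, had 276 and 282 FPKM (0.03). Of the 7 measured genes of this list of 9, SLC7A5 among them, 2 were lower and 0 higher by 2-fold, with a median of -0.60. With the highest transcript per symbol 3 were lower and the median was -0.12, and with no filter on low values it was also -0.12. Over all 12230 measured genes, 2.25% were lower and 4.96% higher by 2-fold, and these shares stand beside each list below. The lists were chosen with earlier results known, so nothing is read from the shares.

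Plasma membrane transporters outside the 10 lay on both sides of 0. Of 24 such genes, 13 were below 1 FPKM in both libraries. Of the 11 measured, 3 were higher and 0 lower by 2-fold (all genes: 4.96% and 2.25%). The highest transcript per symbol gave 1 higher, and a pseudocount of 0.1 gave 1 lower. The median difference of the 11 was -0.03. That median was above 0 under 5 of 7 alternatives, at most 0.15 with the highest transcript per symbol. The 3 were SLC6A17 at 1.49 and 5.34 FPKM (1.35), SLC6A15 at 0.94 and 3.70 FPKM (1.28) and SLC43A2 at 2.19 and 5.48 FPKM (1.03). SLC43A2 (LAT4) belongs to the same family as SLC43A1 and carries the same kind of amino acids. The lowest were the aromatic amino acid carrier SLC16A10 at 1.24 and 0.47 FPKM (-0.61) and SLC7A7. The taurine transporter SLC6A6, at 66.6 and 65.2 FPKM (-0.03), was the most abundant after SLC7A11.

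Of the 13 carriers of the lysosome and mitochondrion, all measured, 0 were lower and 0 higher by 2-fold (all genes: 2.25% and 4.96%). Their median of 0.02 was 0.17 with mitochondrial genes left out. At the top were SLC38A9, the lysosomal arginine sensor, at 13.4 and 22.5 FPKM (0.70) and the lysosomal carrier SLC38A7 at 7.99 and 12.2 FPKM (0.55). The lowest were the mitochondrial ornithine carrier SLC25A15 at 9.30 and 5.57 FPKM (-0.65) and the aspartate and glutamate carrier SLC25A13 at 21.3 and 16.5 FPKM (-0.35).

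Genes of the amino acid response, which ATF4 drives in amino acid shortage, lay on both sides of 0. Of 26, all measured, 4 were higher and 1 was lower by 2-fold (all genes: 4.96% and 2.25%). A pseudocount of 0.1 gave 2 lower. The list median was 0.10, or 0.26 with mitochondrial genes left out and 0.20 after rescaling to the same total. ATF4 mRNA measured 165 FPKM in control cells and 199 FPKM after knockdown (0.27). The highest were the secreted glycoprotein gene STC2 at 4.94 and 19.5 FPKM (1.78) and DDIT3 at 6.04 and 21.0 FPKM (1.64), and the lowest were ATF5 at 15.3 and 5.27 FPKM (-1.38) and NUPR1 at 4.29 and 2.03 FPKM (-0.80). The asparagine synthetase gene ASNS, a classic target, had 24.4 and 16.4 FPKM (-0.55). DDIT3, ATF5 and ASNS share exons with other genes and are uncertain.

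Of the transcription factors known to act on amino acid transporter genes, 6 of 7 were measured, with a median of -0.39. By 2-fold, 1 was lower and 0 higher (all genes: 2.25% and 4.96%). EPAS1 (HIF-2α) measured 65.9 FPKM in control cells and 28.5 FPKM after knockdown (-1.18). MYC had 78.6 and 53.4 FPKM (-0.55), and its partner MAX had 29.5 and 20.7 FPKM (-0.49). HIF1A (0.19) and ATF4 (0.27) were highest. The 19 housekeeping genes set beside them had a median of -0.31, from CYC1 (-0.60) and TFRC (-0.56) to GUSB (0.13) and B2M (0.57), so that MYC and MAX lay near the low end of the range of these genes. With mitochondrial genes left out, the medians were -0.23 for the factors and -0.15 for the housekeeping genes. The part of these factors in the levels of SLC7A5 and SLC3A2 was not tested.

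**Figure D4:**
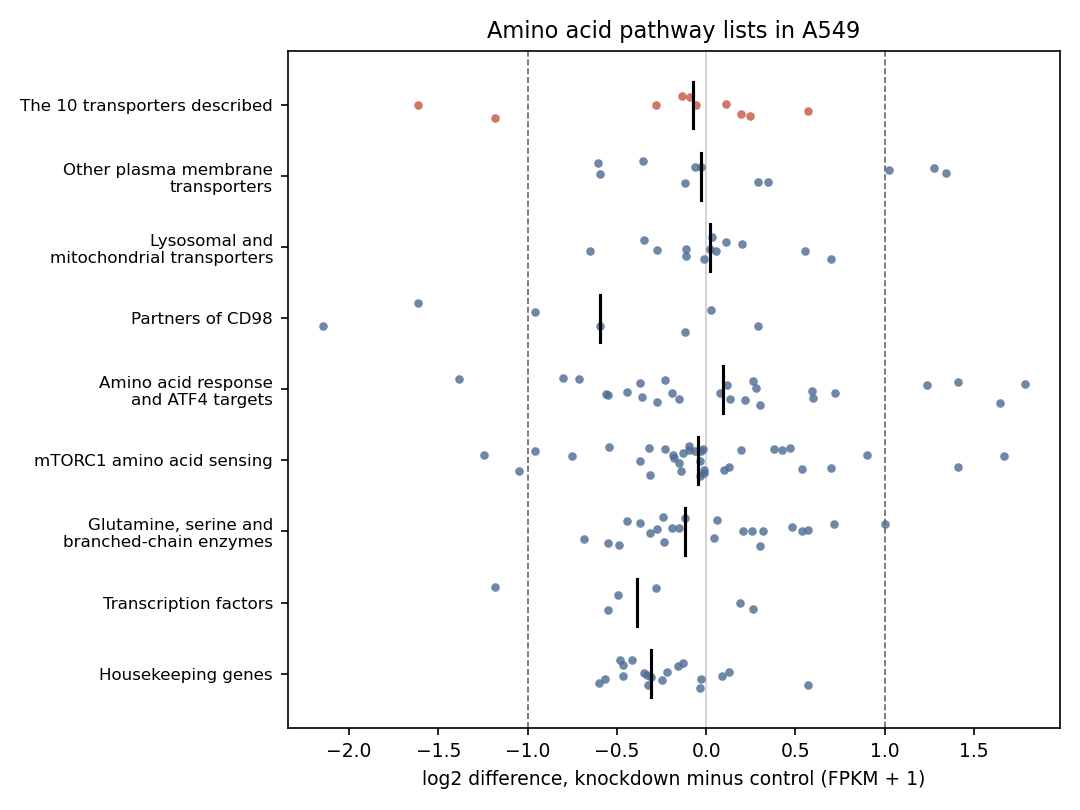
Log2 difference (knockdown minus control, FPKM plus 1) of each measured gene of the 10 transporters and of 8 gene lists, with a black bar at each median and dashed lines at 2-fold. The medians lie between -0.60 (partners of CD98, -0.12 with the highest transcript per symbol) and 0.10 (amino acid response, 0.26 with mitochondrial genes left out), and vertical scatter within a row has no meaning.

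mTORC1 is the growth-controlling kinase complex that leucine and arginine activate at the lysosome, and its sensing machinery was measured in full. Of 34 genes, 2 were higher and 2 lower by 2-fold (all genes: 4.96% and 2.25%). The list median was -0.05, or 0.05 after rescaling to the same total. The highest were the cytosolic arginine sensor CASTOR1 (listed as GATSL3) at 1.57 FPKM in control cells and 7.15 FPKM after knockdown (1.67) and the leucine sensor SESN2 at 2.74 and 8.95 FPKM (1.41). GATSL3 exons are partly those of another gene, which leaves its level uncertain. CASTOR2 (listed as GATSL2), in the same list, was more abundant and differed the other way, at 34.2 and 17.1 FPKM (-0.96). The lowest were MLST8, a subunit of mTORC1 itself, at 23.3 and 9.28 FPKM (-1.24) and DEPDC5, of the GATOR1 complex that restrains mTORC1, at 6.30 and 2.53 FPKM (-1.05). DEPDC5 also shares exons with another gene, and exons of BRICD5 overlap MLST8 on the other strand. After rescaling to the same total, or with mitochondrial genes left out, 1 of these genes was lower by 2-fold.

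Of the 27 enzymes that use the imported amino acids, 23 were measured, with a median of -0.12, or 0.04 with mitochondrial genes left out. By 2-fold, 1 was higher and 0 lower (all genes: 4.96% and 2.25%). The 1 gene higher by 2-fold was the argininosuccinate lyase gene ASL at 8.04 and 17.1 FPKM (1.00), whose exons are partly those of another gene. ASNS (-0.55), named above in the amino acid response, was among the lowest.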

How the data were processed

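Messenger RNA was measured in 4 samples, of which the 2 A549 samples were analysed. Per the labels' protocols, Trizol RNA went into Illumina TruSeq libraries. The submitters' processing notes name hg38 as the build and CASAVA 1.8.2, TopHat and Cufflinks as tools. For the annotation release and the strand setting, nothing is given in the sources used here. The authors deposited FPKM per protein-coding transcript, so depth is unknown and no counting interval can be given. In the other table, 3 value columns matched no sample label and were not used. In the A549 table, the bare name of the line was read as the control.

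With Python 3.11.15 and pandas 2.3.3, FPKM were summed per symbol, genes at 1 FPKM or more in either library were kept, and differences were taken as log2 of FPKM plus 1. The scripts were tested on simulated data. With 1 library per group, no test was made. Members and lists were chosen with earlier results of these data known. Named genes were all members, RBM4, the partners of CD98, and the 2 highest and 2 lowest measured genes of each of 8 lists. Some of these are not reported here. SLC6A6, SLC43A2, MAX and CASTOR2 were added after their values were seen. Positions and overlaps came from GENCODE release 29 (GRCh38), and promoter windows, matched by symbol for all 10 members, from RefSeq. Alternatives covered the pseudocount, the minimum, scaling, centring and the summing of transcripts. The planned protein comparison, the H1299 levels and a likeness ranking were not made.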

Additional observations from a re-analysis of the deposited data

How the results depend on the processing

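The counts of 2 members lower and 0 higher by 2-fold were the same under all 7 alternatives. SLC7A5 lay between -1.70 (highest transcript per symbol) and -1.45 (mitochondrial genes left out), and SLC3A2 between -1.19 (pseudocount of 0.1) and -1.02 (mitochondrial genes left out), where it was close to the 2-fold limit. Over all genes, 275 were lower and 607 higher by 2-fold. These counts were 418 and 985 with a pseudocount of 0.1, 204 and 750 after rescaling to the same total, and 180 and 835 with mitochondrial genes left out. The median of all measured genes moved from -0.04 to 0.06 and to 0.12 under the last 2 settings, by construction of the scaling. Of 50 member differences under alternatives, all 50 stayed on their side of 2-fold and 5 had the opposite sign, in SLC38A1, SLC38A2 and SLC6A9. Of 56 list medians under alternatives, 20 moved by 0.1 or more on the log2 scale and 9 had the opposite sign, and 5 of 112 list counts moved by over 1.5 times. The unknown depth limits the low genes most. No paired analysis was possible because each group had 1 library, and no library could be left out. Rescaled H1299 levels were not computed.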
